A study of Rattus norvegicus with 16 samples.

Results

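Mitochondrial carriers and mitochondrial import proteins were followed in rat hepatoma H35 cells in which *Pdrg1* was silenced. Members were all probes of the array other than control probes whose gene name begins with *Slc25a*, *Timm* or *Tomm*. This rule uses names and no measured value, and it took 83 of 30367 probes and 62 of 26269 gene names. Of the 62 genes, 41 encode carriers of the SLC25 family (56 probes) and 21 carry *Timm* or *Tomm* names (27 probes).

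H35 is an established rat hepatoma line. All groups were transfected with an shRNA plasmid and selected with G418, starting at 1.8 mg/ml for 2 weeks. CN-10 is 1 stable clone with a negative control sequence, shRNA4-18 is 1 stable clone with shRNA4 and shRNA3-44 is 1 stable clone with shRNA3, each chosen from many after a further selection at 4 mg/ml. shRNA3-trans is a pool of cells transfected with shRNA3 that was enriched by the first selection and not cloned. Each group has 4 biological replicates, each on its own one-color array of 60-base probes. Since each stable group is a single clone, the shRNA and the clone cannot be told apart.

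Carriers of the SLC25 family move nucleotides, phosphate, carboxylates, amino acids and cofactors across the inner mitochondrial membrane. Nearly all mitochondrial proteins are made in the cytosol and enter through the TOM complex of the outer membrane. The TIM23 complex then takes proteins with a presequence into the matrix, while small TIM chaperones hand the carriers themselves to the TIM22 complex, which inserts them into the inner membrane. In liver these carriers feed oxidative phosphorylation, the urea cycle, fatty acid oxidation and the export of citrate for lipid synthesis, and SLC25A26 brings S-adenosylmethionine into mitochondria.

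The probes of 2 members with large decreases are shown because these genes were read by more than 1 probe and the readings differed in size. *Slc25a5* had 2 probes. *Timm23* had 3, and 2 of these share 58 of 60 bases. Capitals mark the 2 bases by which the second *Timm23* probe starts earlier than the brightest one, and only the first 30 bases of these overlapping probes are given. The sequences and positions (build rn4) come from the array files.
*Slc25a5* brightest probe, chrX:8073675-8073734, minus strand: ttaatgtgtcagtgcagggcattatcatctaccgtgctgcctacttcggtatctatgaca
*Slc25a5* second probe, chrX:8072602-8072997, minus strand: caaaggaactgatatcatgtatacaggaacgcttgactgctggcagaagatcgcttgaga
*Timm23* brightest probe, chr16:7663265-7663324, minus strand, first 30 bases: ctgcccccaaactggaaaaccacttactct
*Timm23* second probe, chr16:7663267-7663326, minus strand, first 30 bases: TCctgcccccaaactggaaaaccacttact
*Timm23*, the third probe, chr16:7663571-7663630, minus strand: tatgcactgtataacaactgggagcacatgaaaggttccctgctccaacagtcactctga
Between probes of different members the longest identical run was 13 bases.

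Values are log2 intensities after background correction and quantile normalization, and for genes with more than 1 probe the brightest probe is given unless stated. A gene is called changed when its adjusted p is under 0.05 in the limma fit over all probes. The shRNA4-18 arrays were dimmer before normalization, with a 75th percentile of spot intensity of 1614.3 to 1945.9, against 2327.8 to 3691.6 on the other 12 arrays. Each group lay on a slide of its own, and the slide cannot be told apart from the group. Fewer cells with a transcript and less of it per cell cannot be told apart either, since whole cultures were measured. Mean *Pdrg1* was 13.64 in CN-10, 12.87 in shRNA4-18, 12.65 in shRNA3-44 and 12.79 in shRNA3-trans, and every array of the silenced groups was below every CN-10 array. Its log2 fold changes of -0.77, -0.99 and -0.85 had adjusted p of 0.129, 0.105 and 0.143. Replicate 1 read lowest in each silenced group, at 11.57, 11.89 and 12.39. The other arrays read 13.25 to 13.34 in shRNA4-18, 12.86 to 12.95 in shRNA3-44 and 12.90 to 12.97 in shRNA3-trans. The CN-10 arrays read 13.41 to 13.88, so the mean of shRNA4-18 rests largely on replicate 1. Of 9 hepatocyte markers 7 were well above background on all 16 arrays, while *Hnf4a* and *Apoa1* fell short on 1 shRNA4-18 array. Of 8 markers of other cell types 2 were well above background on all 16 arrays, and *Pecam1* and *Ptprc* were on none. *Krt19*, a biliary marker, was well above background on all 4 CN-10 arrays and on none of the silenced arrays, and was called lower in all 3 comparisons with CN-10 (-0.33, -0.54 and -0.52). Of the 8 markers of other cell types, 3 were called in shRNA4-18 (background over all genes 24.1%), with *Acta2* (-0.46) and *Cd68* (-0.43) lower beside *Krt19*. In shRNA3-44 1 was called (background 8.14%) and in shRNA3-trans 2 (background 12.2%), where *Col1a1* was higher (0.52). Of the 9 hepatocyte markers 5 were called in shRNA4-18 (background 24.1%), 1 higher and 4 lower. In shRNA3-44 3 were called (background 8.14%), all higher, and in shRNA3-trans 4 (background 12.2%), 3 higher and 1 lower. *Ttr* was higher in all 3 (2.93, 2.84 and 2.39), *Apoa1* was lower in shRNA4-18 (-2.12) and higher in shRNA3-44 (2.18), and *Tf* was lower in shRNA4-18 (-1.50). The part of either marker list in the results was not tested.

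In shRNA4-18, 21 of the 62 members were called against CN-10, where 24.1% of all genes were called. Of these, 13 were higher (background 11.6%) and 8 lower (background 12.4%), and 10 changed at least 2-fold (background 6.15%), 4 up and 6 down. In shRNA3-44, 4 members were called (background 8.14%), 2 higher (background 3.45%) and 2 lower (background 4.69%). None of them was 2-fold (background 1.47%), and 12 members had an unadjusted p under 0.05. In shRNA3-trans, 16 were called (background 12.2%), 3 higher (background 5.13%) and 13 lower (background 7.04%), again none 2-fold (background 2.39%). The 2-fold count of shRNA4-18 was 5 without its replicate 1 and 4 without its replicate 3. The shRNA3-44 count was 2 without its replicate 4, and the shRNA3-trans count was 9 without CN-10 replicate 2. Without all 4 arrays numbered 1, whose values deviated together from their groups, shRNA3-44 had 10 called members and shRNA4-18 had 5 at 2-fold. Called genes are more frequent among bright genes. Among all genes well above background on every array of CN-10 or of shRNA4-18 the called share was 37%, and it was 13.1% and 19.3% for the corresponding genes in the shRNA3-44 and shRNA3-trans comparisons. Members that met the same condition were called in 20 of 54 cases in shRNA4-18 (37%), 4 of 55 in shRNA3-44 (7.27%) and 16 of 57 in shRNA3-trans (28.1%), a description only, since this condition can be met through the group where a gene is high. The 2-fold share in shRNA4-18 was then 18.5% of the members beside 10.1% of all such genes.

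The median log2 fold change of the members was -0.016 in shRNA4-18, -0.016 in shRNA3-44 and -0.038 in shRNA3-trans, beside medians over all genes of 0.003, -0.008 and -0.008. The 3 comparisons share the CN-10 arrays and are not independent. Bright signal was the rule: 49 members were well above background on all 16 arrays, and *Slc25a36*, *Slc25a41* and *Timm8a2* on none.

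**Figure D1:**
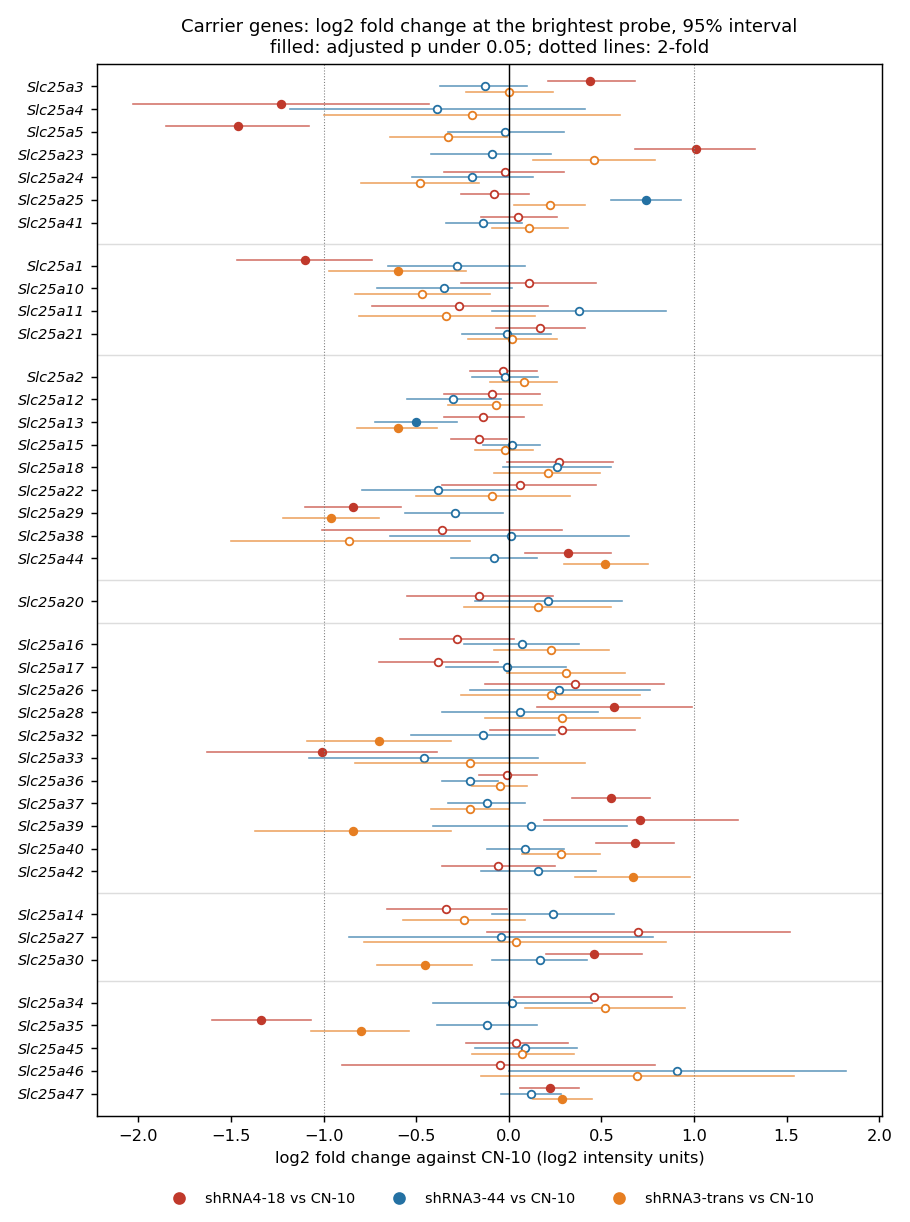
Log2 fold change against CN-10 of the carrier genes reported here at the brightest probe, grouped by transported substrate, with the 95% interval of the limma fit (4 arrays per group, fewer where an outlier spot was left out). Filled points have an adjusted p under 0.05; shRNA4-18 has the lowest value, -1.46 for *Slc25a5*, and *Slc25a23* at 1.01.

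Exchange of ADP and ATP and uptake of phosphate supply the ATP synthase. In shRNA4-18, 4 of the 7 genes of this group were called (background 24.1%), with both ADP/ATP translocases lower and 2 carriers of phosphate higher. In shRNA3-44 1 was called (background 8.14%), and in shRNA3-trans none was by limma (background 12.2%), where 4 had an unadjusted p under 0.05. *Slc25a5* encodes ADP/ATP translocase 2. Its second probe read 15.48, 15.37, 15.39 and 15.40 on the CN-10 arrays and 13.67, 14.32, 14.44 and 14.31 on the shRNA4-18 arrays. The groups did not overlap, and the log2 fold change was -1.22 ± 0.14 (SE; adjusted p = 1.33e-05). Its brightest probe gave -1.46 ± 0.18 (adjusted p = 5.12e-05), with 2 of the 4 shRNA4-18 arrays left out of the fit because their spots were flagged as outliers; the other 2 read 14.85 and 15.18, against 16.27 to 16.62 in CN-10. In shRNA3-trans the second probe was lower as well (-0.69 ± 0.14, adjusted p = 0.00412), while the brightest probe missed the threshold (-0.33, adjusted p = 0.198). In shRNA3-44 the probes read -0.15 and -0.02 and neither was called.

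*Slc25a4*, which encodes ADP/ATP translocase 1, split within the clone. The shRNA4-18 arrays read 13.82, 15.70, 13.88 and 15.73, against 15.67, 16.17, 16.13 and 16.09 in CN-10. Thus 2 arrays lay far below the control mean of 16.01 and the other 2 within the control range. The log2 fold change of -1.23 ± 0.37 was called (adjusted p = 0.0257), but the groups overlapped and the exact permutation test of the 8 arrays gave p = 0.0857 (two-sided). Leaving out 1 array moved it between -1.55 and -0.91, and the call was lost without any one of CN-10 replicates 2, 3 and 4 (-1.19, -1.20 and -1.21) or of shRNA4-18 replicates 1 and 3 (-0.91 and -0.93).

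*Slc25a3*, the phosphate carrier, rose modestly in shRNA4-18. Its arrays read 15.68, 15.37, 15.37 and 15.44, all above the CN-10 range of 14.77 to 15.20 (0.44 ± 0.11, adjusted p = 0.00829). Of 28 alternative fits 26 kept the call, and with the deposited values, not scaled between arrays, *Slc25a3* turned to -0.26 (adjusted p = 0.408). *Slc25a23*, a calcium-regulated carrier of ATP-Mg and phosphate, rose 2-fold. It read 14.72, 14.47, 14.61 and 14.37 in shRNA4-18 and 13.15, 13.70, 13.69 and 13.60 in CN-10, a difference of 1.01 ± 0.15 (adjusted p = 0.000184). Its relative *Slc25a25* was the clearest change in shRNA3-44. There the arrays read 13.13, 12.90, 13.07 and 13.10, against 12.35, 12.38, 12.20 and 12.31 in CN-10 (0.74 ± 0.09, adjusted p = 9.15e-05). In shRNA4-18 *Slc25a25* stayed at -0.08 (adjusted p = 0.613), and the difference between the clones was itself called (-0.81, adjusted p = 8.97e-06). *Slc25a24*, a further relative, was not called at its brightest probe in any comparison with CN-10, but its dimmer probe was lower in shRNA4-18 (-0.72 ± 0.20, adjusted p = 0.0171).

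**Figure D2:**
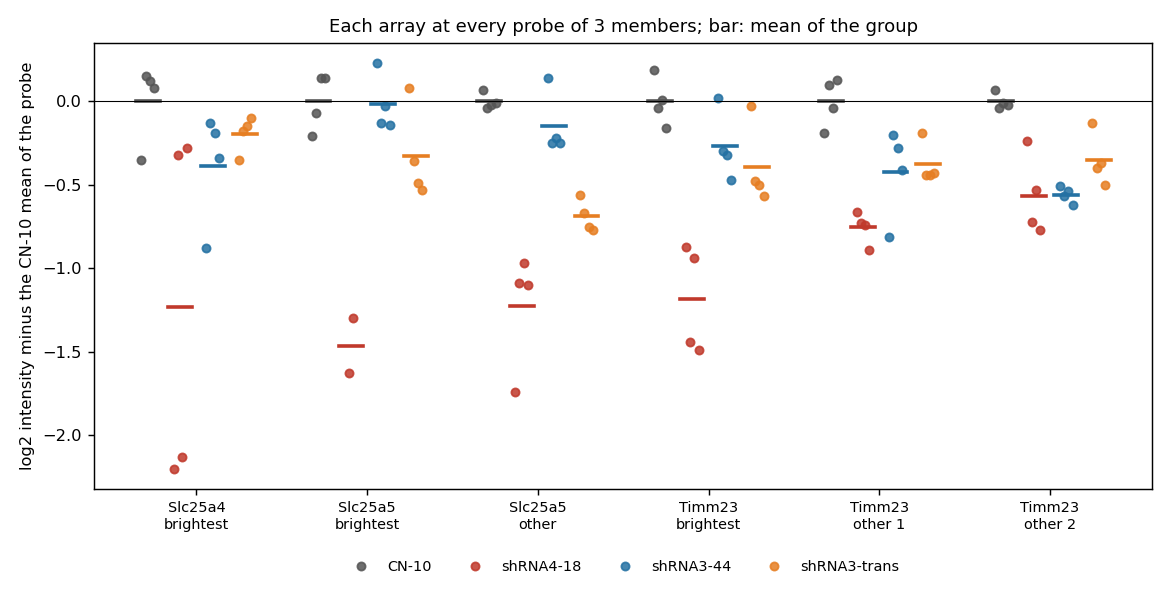
Log2 intensity on each array minus the CN-10 mean of the same probe, for every probe of *Slc25a4*, *Slc25a5* and *Timm23*; bars are group means and each group has 4 arrays, except shRNA4-18 at the brightest *Slc25a5* probe, which has 2. The shRNA4-18 arrays lie below those of CN-10 at all 5 probes of *Slc25a5* and *Timm23*, and they form 2 pairs at *Slc25a4*.

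Among the carboxylate carriers, *Slc25a1* changed. It encodes the citrate carrier, which exports citrate for fatty acid and sterol synthesis. Its level was 13.43, 13.27, 13.14 and 13.09 in CN-10 and 12.61, 12.23, 11.81 and 11.86 in shRNA4-18, without overlap (-1.10 ± 0.17, adjusted p = 0.000241). In shRNA3-trans it read 12.28, 12.82, 12.68 and 12.74, again below every control array (-0.60 ± 0.17, adjusted p = 0.0331). The shRNA3-trans call was lost when CN-10 replicate 1, 2 or 3 or shRNA3-trans replicate 1, 3 or 4 was left out, with values of -0.64 to -0.49. In shRNA3-44 it was -0.28 (95% interval -0.65 to 0.09, not called). *Slc25a10*, *Slc25a11* and *Slc25a21*, for dicarboxylates, oxoglutarate and oxoadipate, were not called in any comparison with CN-10.

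Of the 9 amino acid carriers, 2 were called in shRNA4-18 (background 24.1%), 1 in shRNA3-44 (background 8.14%) and 3 in shRNA3-trans (background 12.2%). *Slc25a13* encodes the aspartate/glutamate carrier citrin, which serves the urea cycle and the malate-aspartate shuttle. It read 11.81, 11.65, 11.68 and 11.68 in CN-10, 11.28, 11.20, 11.18 and 11.17 in shRNA3-44, and 11.27, 11.01, 11.11 and 11.01 in shRNA3-trans. Both shRNA3 groups lay below every control array, by -0.50 ± 0.10 (adjusted p = 0.00677) and -0.60 ± 0.10 (adjusted p = 0.00103), and shRNA4-18 differed by -0.14 (adjusted p = 0.399). Its second, dimmer probe did not follow: it gave 0.53 in shRNA3-44 (adjusted p = 0.31) and -0.12 in shRNA3-trans (adjusted p = 0.896).

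*Slc25a29*, a carrier of basic amino acids, was lower in shRNA4-18 and in the shRNA3 pool. It read 8.72, 8.54, 8.34 and 8.32 in CN-10, 7.59, 7.81, 7.64 and 7.51 in shRNA4-18, and 7.70, 7.49, 7.46 and 7.42 in shRNA3-trans. The log2 fold changes were -0.84 ± 0.12 (adjusted p = 0.00013) and -0.96 ± 0.12 (adjusted p = 8.82e-05), and shRNA3-44 was not called (-0.29, adjusted p = 0.189). *Slc25a44*, a carrier of branched-chain amino acids, moved the other way. It rose in shRNA3-trans (0.52 ± 0.11, adjusted p = 0.00398), where all arrays, at 11.91 to 12.10, were above the CN-10 range of 11.36 to 11.74, and by 0.32 ± 0.11 in shRNA4-18 (adjusted p = 0.0408), where the groups overlapped. The shRNA4-18 call of *Slc25a44* was lost in 8 of 16 fits that left out 1 array (CN-10 or shRNA4-18 replicate 1, 2 or 3, or shRNA3-trans replicate 2 or 3), with values from 0.27 to 0.40. *Slc25a15*, the ornithine carrier of the urea cycle, was near background and well above it on 1 of 16 arrays.

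Of the 12 carriers with cofactor, nucleotide, iron or glutathione substrates, 6 were called in shRNA4-18 (background 24.1%), 5 higher and 1 lower. In shRNA3-44 none was called by limma (background 8.14%), where 2 had an unadjusted p under 0.05, and in shRNA3-trans 3 were (background 12.2%), 1 higher and 2 lower. In shRNA4-18 *Slc25a37* and *Slc25a28*, the mitoferrins that import iron, were higher by 0.55 ± 0.10 (adjusted p = 0.00069) and 0.57 ± 0.20 (adjusted p = 0.0469), although the *Slc25a28* groups overlapped and its second probe read -0.14 (adjusted p = 0.776). *Slc25a39* and *Slc25a40*, needed for glutathione import, were higher in shRNA4-18 by 0.71 ± 0.25 (adjusted p = 0.0487) and 0.68 ± 0.10 (adjusted p = 0.000116). The second *Slc25a40* probe read -0.28 and was not called (adjusted p = 0.115), whereas the second *Slc25a39* probe gave 0.77 ± 0.11 (adjusted p = 9.55e-05). At the brightest *Slc25a39* probe the call was lost in 13 of the 16 fits without 1 array, with values from 0.62 to 0.77, and held without shRNA3-trans replicate 1, 2 or 3. In shRNA3-trans this probe was lower (-0.84 ± 0.25, adjusted p = 0.0382), a call lost without any 1 of the CN-10 replicates or without shRNA3-44 replicate 3 or 4 (-0.99 to -0.48 over all fits), and the second probe gave -0.29 (adjusted p = 0.114). *Slc25a33*, a pyrimidine nucleotide carrier, was lower in shRNA4-18 (-1.01 ± 0.29, adjusted p = 0.0193). Its shRNA4-18 arrays read 7.57, 8.15, 7.83 and 9.32 and overlapped the CN-10 arrays at 8.94, 9.63, 9.56 and 8.77, and its second probe gave -0.17. The *Slc25a33* call was lost without CN-10 replicate 2 or 3 (-0.87, -0.89) or shRNA4-18 replicate 1 or 3 (-0.80, -0.88).

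In shRNA3-trans *Slc25a42*, the coenzyme A carrier, rose by 0.67 ± 0.14 (adjusted p = 0.00598). Its arrays read 9.42, 9.24, 9.35 and 9.44 against 8.52, 8.41, 8.93 and 8.91 in CN-10. The folate carrier gene *Slc25a32* was lower there (-0.70 ± 0.18, adjusted p = 0.0201).

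*Slc25a26*, the mitochondrial carrier of S-adenosylmethionine, bears on the methionine metabolism that the study addresses. It read 8.40, 8.89, 8.89 and 8.70 in CN-10, and 9.12, 9.82, 8.51 and 8.85 in shRNA4-18. The shRNA3-44 arrays read 9.29, 8.90, 8.97 and 8.82 and the shRNA3-trans arrays 9.32, 8.98, 8.77 and 8.71. All groups overlapped with CN-10. The differences of 0.36, 0.27 and 0.23 were not called (adjusted p = 0.306, 0.582 and 0.664), and their 95% intervals of -0.13 to 0.84, -0.21 to 0.76 and -0.26 to 0.71 cover both directions. *Slc25a20*, the carnitine/acylcarnitine carrier of fatty acid oxidation, gave -0.16, 0.21 and 0.16, none called, with intervals inside -0.55 to 0.61.

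Among carriers with less settled substrates, *Slc25a35* had the smallest adjusted p of all members against CN-10. It read 8.06, 8.30, 8.29 and 8.29 in CN-10, 6.81, 6.75, 7.0 and 7.03 in shRNA4-18, and 6.99, 7.60, 7.56 and 7.57 in shRNA3-trans. The log2 fold changes were -1.34 ± 0.13 (adjusted p = 2.07e-06) and -0.80 ± 0.13 (adjusted p = 0.000533). In shRNA4-18 the *Slc25a35* signal was well above background on only 2 of 4 arrays, and the size is not settled. It ran from -2.74 to -0.54 over the 28 alternatives, 27 of which kept the call (highest adjusted p 0.186), and in shRNA3-trans from -1.28 to -0.65, with 26 of 28 keeping it (highest adjusted p 0.441). *Slc25a47*, a liver carrier, was dim, well above background on all 4 arrays of shRNA3-trans and on 1, 0 and 0 arrays of CN-10, shRNA4-18 and shRNA3-44. Its values of 0.22 in shRNA4-18 and 0.29 in shRNA3-trans passed the threshold (adjusted p = 0.0465 and 0.0191), but not in every fit without 1 array (0.18 to 0.28 and 0.26 to 0.32). The first was lost in 10 of 16 fits (CN-10 replicate 2, 3 or 4, shRNA4-18 replicate 1, 2 or 3, shRNA3-44 replicate 2, shRNA3-trans replicate 2, 3 or 4) and the second in 4 (CN-10 replicate 2 or 3, shRNA3-trans replicate 1 or 3). *Slc25a30*, related to the uncoupling proteins, went up in shRNA4-18 (0.46 ± 0.12, adjusted p = 0.0115) and down in shRNA3-trans (-0.45 ± 0.12, adjusted p = 0.0223).

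**Figure D3:**
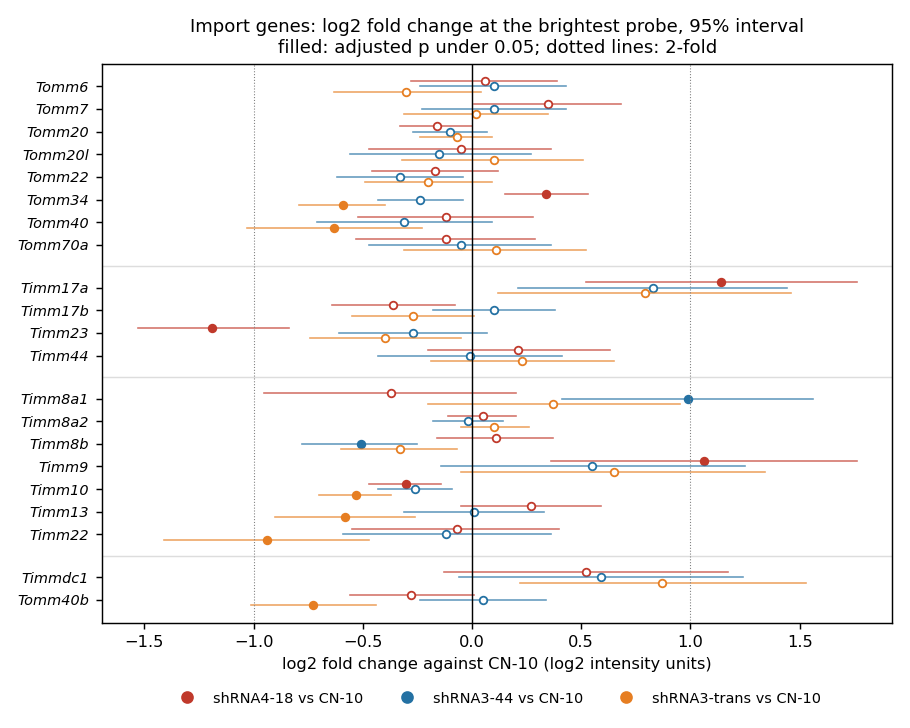
Log2 fold change against CN-10 of the 21 genes with *Timm* or *Tomm* names at the brightest probe, with the 95% interval of the limma fit (4 arrays per group, fewer where an outlier spot was left out). Groups from top to bottom are the outer membrane, the TIM23 complex, the TIM22 complex with its chaperones, and 2 further genes taken by name only. The 6 called values of shRNA3-trans (background 12.2%) all lie below 0 (background 7.04%).

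Of the 9 genes with *Tomm* names, *Tomm34* alone was called in shRNA4-18 (background 24.1%), none by limma in shRNA3-44 (background 8.14%), where 2 had an unadjusted p under 0.05, and 3 in shRNA3-trans (background 12.2%), *Tomm34*, *Tomm40* and *Tomm40b*. *Tomm20*, *Tomm22* and *Tomm70a*, which recognize incoming proteins, were not called in any comparison with CN-10, with log2 fold changes between -0.33 and 0.11. Without the 4 arrays numbered 1, *Tomm22* was called lower in all 3 comparisons, with the smallest adjusted p, 0.00749, in shRNA3-44 (-0.44). *Tomm40*, the pore, was lower in shRNA3-trans: its arrays read 11.16, 10.90, 10.86 and 10.79 against 11.66, 11.76, 11.19 and 11.63 in CN-10 (-0.63 ± 0.19, adjusted p = 0.0397). The *Tomm40* call was lost in 7 of 16 fits without 1 array (CN-10 replicate 1, 2 or 4, shRNA3-44 replicate 2, shRNA3-trans replicate 2, 3 or 4), with values of -0.75 to -0.56 over all fits. The related gene named *Tomm40b* on the array was lower as well (-0.73 ± 0.13, adjusted p = 0.00208). *Tomm34*, a cytosolic co-chaperone of import, rose in shRNA4-18 (0.34 ± 0.09, adjusted p = 0.0119) and fell in shRNA3-trans (-0.59 ± 0.09, adjusted p = 0.00041). Its arrays read 12.51, 12.63, 12.58 and 12.55 in CN-10, 13.08, 12.97, 12.86 and 12.72 in shRNA4-18, and 11.94, 12.05, 11.97 and 11.94 in shRNA3-trans, so the 3 groups did not overlap. *Tomm6*, a small TOM subunit, was flat at its brightest probe in shRNA4-18 (0.06) and lower at its second probe (-0.85 ± 0.15, adjusted p = 0.000825).

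Of the channel-forming subunits of the TIM23 complex, *Timm23* and *Timm17a* diverged in shRNA4-18. *Timm23*, which forms the channel, was lower at all 3 probes. The brightest probe read 17.02, 16.79, 16.84 and 16.67 in CN-10 and 15.96, 15.39, 15.89 and 15.34 in shRNA4-18 (-1.19 ± 0.16, adjusted p = 6.78e-05). The second probe, shifted by 2 bases, gave a smaller difference of -0.75 ± 0.12 (adjusted p = 0.000291), and the third gave -0.57 ± 0.11 (adjusted p = 0.00104). The second probe was lower in shRNA3-44 too (-0.43 ± 0.12, adjusted p = 0.0425) and missed the threshold in shRNA3-trans (-0.38, adjusted p = 0.0574). Since the first 2 probes read nearly the same bases, the direction is shared but the size is not settled. The third probe was called in all 3 comparisons, with -0.56 ± 0.11 in shRNA3-44 (adjusted p = 0.00365) and -0.35 ± 0.11 in shRNA3-trans (adjusted p = 0.043). There it read 15.59, 15.47, 15.51 and 15.50 in CN-10 and 15.01, 14.95, 14.97 and 14.89 in shRNA3-44. This probe was singled out after its values were seen, and the brightest one was not called in either shRNA3 group (-0.27 and -0.40, adjusted p = 0.408 and 0.145). In a limma fit with the replicate number as a block, the brightest probe was called in shRNA3-trans (-0.40, adjusted p = 0.0126).

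*Timm17a*, the partner of *Timm23* in the channel, was higher in shRNA4-18 at 15.37, 13.79, 15.12 and 14.40, against 13.55, 13.64, 13.09 and 13.83 in CN-10 (1.14 ± 0.29, adjusted p = 0.00974). The groups overlapped by 1 array, and the exact permutation p was 0.0571. In shRNA3-44 and shRNA3-trans it read 0.83 and 0.79 higher and was not called (adjusted p = 0.11 and 0.133), although no array of these groups reached down to the CN-10 range; the shRNA3-trans value rests on 3 arrays, since 1 outlier spot was left out. *Timm17b* and *Timm44*, the latter a docking subunit for the import motor, were not called against CN-10. *Timm17b* leaned the way of *Timm23* in shRNA4-18, at 11.73, 11.53, 11.32 and 11.13 against 11.74 to 11.86 in CN-10.

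Of the 7 genes of the TIM22 complex and the small TIM chaperones, 2 were called in shRNA4-18 (background 24.1%), 2 in shRNA3-44 (background 8.14%) and 3 in shRNA3-trans (background 12.2%), where all 3 were lower (background 7.04%). *Timm22*, the channel that inserts carriers, read 10.04, 9.18, 9.77 and 9.26 in CN-10 and 8.42, 8.87, 8.69 and 8.52 in shRNA3-trans (-0.94 ± 0.22, adjusted p = 0.011). *Timm10*, a subunit of the chaperone that escorts them, read 13.86, 13.55, 13.90 and 13.67 in CN-10 and 13.20, 13.27, 13.18 and 13.18 in shRNA3-trans (-0.53 ± 0.08, adjusted p = 0.000331). *Timm13*, a small TIM of a second chaperone, fell by 0.58 on the log2 scale (adjusted p = 0.0185). *Timm10* was also lower in shRNA4-18 (-0.30 ± 0.08, adjusted p = 0.0104). Its partner *Timm9* was higher in shRNA4-18, at 13.61, 13.00, 13.21 and 11.85 against 11.99, 11.13, 11.89 and 12.40 (1.06 ± 0.33, adjusted p = 0.028), with overlap and an exact permutation p of 0.114. The *Timm9* call was lost without CN-10 replicate 2 or 3 (0.82, 1.07) or shRNA4-18 replicate 1, 2 or 3 (0.83, 1.03, 0.96).

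In shRNA3-44, 2 further small TIM genes changed in opposite directions. *Timm8a1* read 14.87, 14.62, 14.60 and 14.59 against 14.26, 13.27, 14.03 and 13.18 in CN-10 (0.99 ± 0.27, adjusted p = 0.0355). *Timm8b* read 13.70, 13.43, 13.25 and 13.30 against 14.08, 14.00, 13.81 and 13.85 (-0.51 ± 0.12, adjusted p = 0.0188). Neither group overlapped with CN-10. The *Timm8a1* call was lost without CN-10 replicate 2 or 4 or any 1 of the shRNA3-44 replicates, and the *Timm8b* call without CN-10 replicate 1 or 2 or shRNA3-44 replicate 3 or 4. Values over all such fits ranged from 0.82 to 1.18 and from -0.61 to -0.46.

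The same shRNA3 plasmid was present in the stable clone shRNA3-44 and in the pool shRNA3-trans. Between them 13 members were called (background 10.9%), 10 higher in the clone (background 5.36%) and 3 lower (background 5.57%). Of the 5 genes with *Timm* or *Tomm* names among them all were higher in the clone. Among these called members, the widest differences of clone minus pool were 0.96 ± 0.25 for *Slc25a39* (adjusted p = 0.0212), 0.82 ± 0.22 for *Timm22* (adjusted p = 0.0264), 0.77 ± 0.13 for *Tomm40b* (adjusted p = 0.00162) and 0.69 ± 0.13 for *Slc25a35* (adjusted p = 0.00232). *Slc25a29* followed with 0.67 ± 0.12 (adjusted p = 0.00235), and *Slc25a44* was lower in the clone by -0.60 ± 0.11 (adjusted p = 0.00176). The count was 8 without shRNA3-44 replicate 1 or without shRNA3-trans replicate 4. By limma it was 0 with normexp and 75th percentile scaling, 0 with the deposited values as they are, and 26 with array weights. The *Slc25a39* difference holds 1 array far from the rest: the pool read 11.93 on replicate 1 and 13.24 to 13.45 on the other 3.

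**Figure D4:**
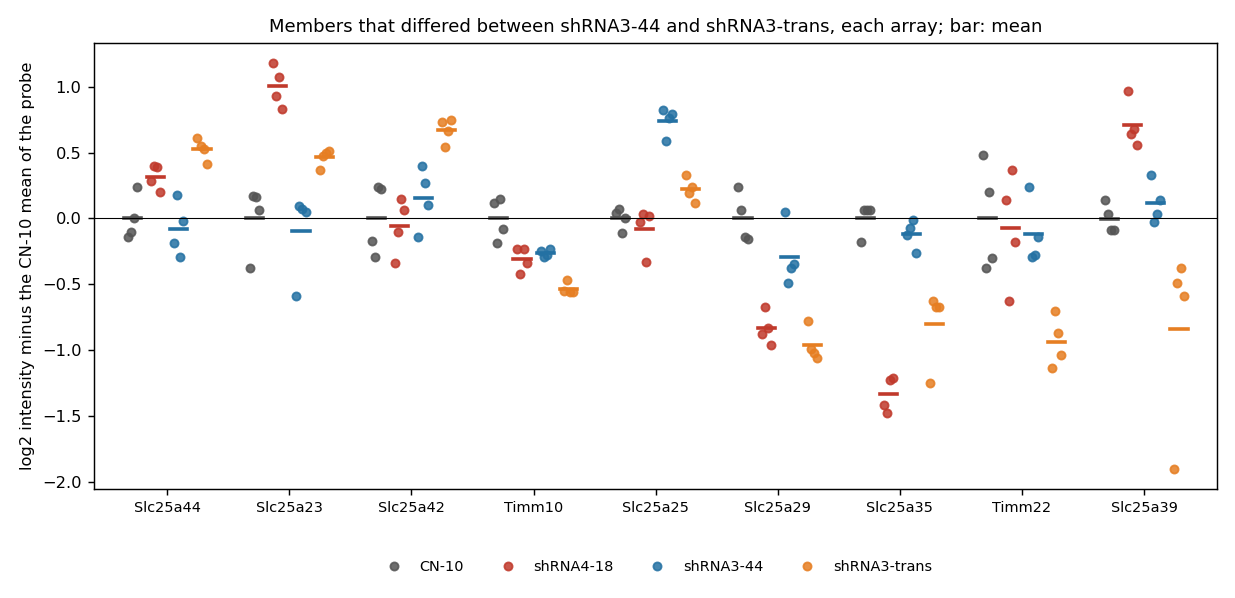
Log2 intensity on each array minus the CN-10 mean of the probe, for 9 of the 13 members called between the stable clone shRNA3-44 and the pool shRNA3-trans; *Slc25a30*, *Timm13*, *Tomm34* and *Tomm40b* are not drawn, and bars are group means over 4 arrays. The pool lies below the clone for *Timm10*, *Slc25a25*, *Slc25a29*, *Slc25a35*, *Timm22* and *Slc25a39*, and above it for *Slc25a44*, *Slc25a23* and *Slc25a42*.

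Direct comparisons of shRNA4-18 with the shRNA3 groups called 19 members against shRNA3-44 (background 22.5%), 9 higher (background 12.4%) and 10 lower (background 10.1%). Against shRNA3-trans they called 23 (background 20.5%), 16 higher (background 11.3%) and 7 lower (background 9.24%). *Slc25a39* and *Tomm34* stood at 1.55 (adjusted p = 0.000338) and 0.93 (adjusted p = 3.55e-06) above shRNA3-trans, and *Slc25a30* at 0.91 (adjusted p = 6.81e-05). These are the 3 members called in opposite directions against CN-10. At the brightest probe *Slc25a5* and *Timm23* were lower in shRNA4-18 than in either shRNA3 group. The differences were -1.44 and -0.92 against shRNA3-44 and -1.14 and -0.79 against shRNA3-trans (adjusted p from 6.51e-05 to 0.00236). The *Slc25a5* values rest on 2 shRNA4-18 arrays. Its second probe averaged 14.19 in shRNA4-18, 15.26 in shRNA3-44 and 14.72 in shRNA3-trans. The second *Timm23* probe averaged 15.93, 16.26 and 16.31 in the same order. At the third *Timm23* probe shRNA4-18 (14.95) was level with shRNA3-44 (14.96), and shRNA3-trans was at 15.17.

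Of the 19 members with more than 1 probe, 8 were called at the brightest probe in shRNA4-18 (background 24.1%), and for 5 of these another probe was called too, among them *Slc25a5*, *Slc25a39*, *Slc25a44* and *Timm23*. In shRNA3-trans the 4 members called at the brightest probe (background 12.2%) had no other probe called. The signs of a gene's probes differed for 7 of the 19 in shRNA4-18, 7 in shRNA3-44 and 1 in shRNA3-trans.

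Promoters were taken from RefSeq (build GRCr8), as 250 bases before to 50 bases after the start of each gene. They were found for 54 of the 62 members, 52 by the current symbol and 2 by an older one. The letters CCGGAAG, the core bound by ETS factors such as GABP, a known regulator of mitochondrial genes, stood on either strand in 14 of 54 member promoters (25.9%) and in 8.75% of all 33469 promoters. Of 20 genes with *Timm* or *Tomm* names 8 held them, and of 34 carriers 6. They stood in 5 of the 26 members called in any comparison with CN-10 and in 9 of the 28 not called. The cyclic AMP response element TGACGTCA, found in 1.83% of all promoters, stood in those of *Slc25a25* and *Slc25a33*. The NRF1 motif was in 2 member promoters (3.7%, against 4.25% of all), ATGGCGG, bound by YY1, in 6 (11.1%, against 4.8%), and the E-box CACGTG in 5 (9.26%, against 6.42%). A match of letters is a description and was not tested as a binding site.

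The promoters of 3 members that were lower in shRNA4-18 and held the ETS letters are shown with these in capitals. *Slc25a3*, higher in shRNA4-18, held the letters as well and is not shown. A link between the letters and the direction of change was not tested. The promoter of *Slc25a25*, higher in shRNA3-44, is shown with the response element in capitals. In *Timm10* a palindrome makes 2 of the 3 matches overlap.
*Timm10*, chr3:90314889-90315188, plus strand: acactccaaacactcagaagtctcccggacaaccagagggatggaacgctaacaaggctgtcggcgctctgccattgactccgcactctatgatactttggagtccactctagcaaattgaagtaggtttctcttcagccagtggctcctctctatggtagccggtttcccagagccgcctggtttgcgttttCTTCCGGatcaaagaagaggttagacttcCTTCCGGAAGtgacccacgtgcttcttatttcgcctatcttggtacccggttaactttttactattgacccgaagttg
*Timm23*, chr16:7442570-7442869, minus strand: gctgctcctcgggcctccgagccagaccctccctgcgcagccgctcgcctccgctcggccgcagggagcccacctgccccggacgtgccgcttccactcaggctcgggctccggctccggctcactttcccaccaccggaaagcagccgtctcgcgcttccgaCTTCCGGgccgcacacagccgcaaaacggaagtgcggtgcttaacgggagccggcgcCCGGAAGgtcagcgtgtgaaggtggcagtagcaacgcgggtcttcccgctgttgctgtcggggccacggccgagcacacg
*Slc25a4*, chr16:52805271-52805570, plus strand: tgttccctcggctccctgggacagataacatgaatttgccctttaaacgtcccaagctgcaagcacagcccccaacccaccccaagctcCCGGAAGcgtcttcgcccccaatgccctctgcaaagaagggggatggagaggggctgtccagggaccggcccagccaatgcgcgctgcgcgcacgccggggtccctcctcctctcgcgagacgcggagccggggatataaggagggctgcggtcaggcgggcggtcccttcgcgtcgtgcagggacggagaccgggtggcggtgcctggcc
*Slc25a25*, chr3:36116532-36116831, minus strand: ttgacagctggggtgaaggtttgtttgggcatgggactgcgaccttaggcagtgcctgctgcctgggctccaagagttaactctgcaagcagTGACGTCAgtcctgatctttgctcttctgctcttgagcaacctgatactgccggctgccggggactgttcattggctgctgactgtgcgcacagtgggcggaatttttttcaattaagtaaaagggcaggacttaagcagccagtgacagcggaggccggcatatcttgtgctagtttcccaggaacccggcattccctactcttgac

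Genes of the same pathways whose names fall outside the rule were read from a list of 41, of which 34 were on the array. In shRNA4-18, 7 were called (20.6%, background 24.1%), 4 higher and 3 lower. In shRNA3-44 there were 3 (8.82%, background 8.14%), of which 1 was higher and 2 lower, and in shRNA3-trans 4 (11.8%, background 12.2%), of which 1 was higher and 3 lower. In shRNA4-18 *Vdac2*, a channel of the outer membrane, read 10.59, 10.27, 11.34 and 11.50 against 12.61, 12.61, 12.19 and 11.95 in CN-10 (-1.42 ± 0.24, adjusted p = 0.000409). *Sfxn2*, a sideroflexin, was lower (-1.13 ± 0.17, adjusted p = 0.000148), and *Mtx1*, an outer membrane import factor, was higher (1.33 ± 0.32, adjusted p = 0.00653). *Mipep*, a protease that trims imported precursors, was lower in shRNA3-trans (-1.48 ± 0.28, adjusted p = 0.00273), with 1 of the 4 arrays left out as an outlier spot. In shRNA3-44 *Dnajc15*, a co-chaperone of the import motor, and *Mtch2*, an outer membrane insertase, were lower by -0.99 ± 0.20 (adjusted p = 0.00652) and -0.86 ± 0.13 (adjusted p = 0.000487).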

How the data were processed

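RNA of 16 cultures was hybridized to Agilent one-color rat arrays. The deposited files hold scanner intensity per spot from Feature Extraction 10.7.3.1, and the authors' series table holds log2 values that equal background-corrected median signals without scaling between arrays. From the mean and background intensities, normexp correction (offset 50), quantile normalization, averaging of the spots of a probe and a linear model with 1 mean per group over all 16 arrays were run in limma 3.58.1 (R 4.3.3). Control spots and spots flagged as outliers were left out. Benjamini-Hochberg adjustment covered all 30367 probes, and the call threshold was 0.05. Single members were also compared by two-sided exact permutation tests, whose smallest p is 0.0286. The fit was also run on simulated arrays, and the outcome is not given here. Intervals are 95% intervals of the fit, and 4 arrays per group limit the precision.

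Members and gene lists were chosen with earlier results of these data known. Genes were named when called at 2-fold, when among the 4 highest or 4 lowest called values of a comparison with CN-10, or by role. *Slc25a10*, *Slc25a11*, *Slc25a21*, *Slc25a24*, *Slc25a28*, *Slc25a30*, *Slc25a32*, *Slc25a37*, *Slc25a40*, *Timm13*, *Timm17b*, *Tomm6*, *Tomm34* and *Tomm40b* were added after their values were seen, as were the genes outside the name rule. Alternatives changed the background correction, scaling, filters, weights, probe rule and arrays used. The values of 1 member are not reported here, although it is counted among the members.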

Additional observations from a re-analysis of the deposited data

Results flagged for a closer look

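Dixon's test, which compares the gap to 1 array with the range of its group, flagged 12 of the 118 groups of member values tested, where chance gives about 1 in 20. A small gap is enough where the other 3 arrays nearly coincide, as for *Slc25a33* below. Replicate 1 was the array in 9 of the 12. In shRNA3-44 replicate 1, *Slc25a23* read 12.95 (others 13.59 to 13.63), *Slc25a3* 15.14 (14.79 to 14.81), *Slc25a33* 8.74 (8.77 to 8.78) and *Timm8a1* 14.87 (14.59 to 14.62). In CN-10 replicate 1, *Slc25a35* read 8.06 (8.29 to 8.30) and *Slc25a4* 15.67 (16.09 to 16.17). In shRNA3-trans replicate 1, *Slc25a35* read 6.99 (7.56 to 7.60), *Slc25a39* 11.93 (13.24 to 13.45) and *Timm8b* 13.95 (13.48 to 13.49). The remaining values were *Slc25a25* at 11.98 in shRNA4-18 replicate 3 (12.29 to 12.35), and in shRNA3-trans replicate 2 *Timm10* at 13.27 (13.18 to 13.20) and *Timm8a1* at 13.82 (14.11 to 14.16).

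Between the groups that carry the same shRNA3 plasmid, the test of the difference itself was passed by 9 of the named members (background over all genes 10.9%). Many members were named because they were called or extreme against CN-10 in these groups, so this count is partly built in. The values of shRNA3-44 minus shRNA3-trans were -0.60 for *Slc25a44*, -0.55 for *Slc25a23*, -0.51 for *Slc25a42*, 0.27 for *Timm10*, 0.52 for *Slc25a25*, 0.67 for *Slc25a29*, 0.69 for *Slc25a35*, 0.82 for *Timm22* and 0.96 for *Slc25a39*. Between silenced groups that were called in opposite directions against CN-10, shRNA4-18 minus shRNA3-trans was 1.55 for *Slc25a39*, 0.93 for *Tomm34* and 0.91 for *Slc25a30*.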

How the results depend on the processing

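Of the 31 called values of named genes, 3 kept the call under every alternative that was run. Leaving out 1 array at a time, the called members ranged from 14 to 22 in shRNA4-18, 2 to 6 in shRNA3-44 and 9 to 20 in shRNA3-trans against CN-10, from 16 to 23 and 18 to 25 for shRNA4-18 against shRNA3-44 and shRNA3-trans, and from 8 to 16 for shRNA3-44 against shRNA3-trans. The 2-fold counts against CN-10 ranged from 4 to 10, 0 to 1 and 0 to 3, and the medians from -0.034 to 0.05, -0.057 to 0.005 and -0.056 to -0.019. Scaling moved the medians. With processed signals and the 75th percentile, the members' median in shRNA4-18 was 0.063 (all genes 0.187) with 6 genes at 2-fold, shRNA3-44 had 1 call, and shRNA3-trans had 5 genes at 2-fold and a median of -0.117 (all genes -0.225). With normexp and the 75th percentile, shRNA4-18 had 18 genes at 2-fold, 14 up and 4 down, and a median of 0.178 (all genes 0.843). There shRNA3-44 had 1 call, shRNA3-trans 2 calls, 1 at 2-fold and a median of -0.087, the clone and the pool differed in 0 members, and *Slc25a15* in shRNA4-18 turned to 1.11. With the deposited values as they are, the medians were -0.536 (all genes 0.131), -0.099 and -0.091, calls were 0 in shRNA3-44, 0 in shRNA3-trans and 0 between them (limma), and in shRNA4-18 *Slc25a3* turned to -0.26 and *Slc25a44* to -0.39. An offset of 16 gave shRNA3-trans 2 genes at 2-fold and a median of -0.058, and leaving out dim probes a median of -0.074. Array weights gave shRNA3-44 13 calls, 1 at 2-fold and a median of -0.062, shRNA3-trans 33 calls and a median of -0.02, and 26 between them. Without the arrays numbered 1 (chosen after seeing the data) shRNA4-18 had 5 genes at 2-fold, shRNA3-44 10 calls and 2 at 2-fold, and shRNA3-trans 1 at 2-fold. The mean of its probes turned *Slc25a13* in shRNA3-44 to 0.02. The causes were not tested.

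The sample labels give replicate numbers but state no pairing. Deviations of arrays from their group means correlated at 0.18 to 0.44 in the 6 pairs numbered 1. For pairs numbered 2, 3 or 4 they correlated at -0.11 to 0.21, and for pairs of different numbers at -0.40 to 0.25. Of 16 arrays, 7 correlated best with an array of their own number. With the replicate number as a block, 22, 4 and 18 members were called against CN-10, and 19, 25 and 14 in the other comparisons. The block took the call from 4 named values, *Slc25a39* in shRNA4-18 (0.71, adjusted p = 0.0738) and in shRNA3-trans (-0.84, 0.0612), *Slc25a44* in shRNA4-18 (0.32, 0.0543) and *Tomm40* in shRNA3-trans (-0.63, 0.054). It gave a call to 3 in shRNA3-trans, *Slc25a23* (0.46, 0.0466), *Timm23* (-0.40, 0.0126) and *Timm8b* (-0.33, 0.00915).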
